A study of Mus musculus with 6 samples.

Results

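The LY6 genes of mouse bone marrow were described through 7 members chosen by symbol, Ly6a, Ly6c1, Ly6c2, Ly6d, Ly6e, Ly6g and Ly6i, out of 47561 entries in each file. Bone marrow RNA was sequenced in 6 libraries with paired reads of 151 bp. The CUMS group (3 libraries) came from mice given 4 weeks of chronic unpredicted mild stress, changing mild stressors used to model depression, and the control group (3 libraries) is labelled as negative control. The title of the series names myelopoiesis, so the comparison of CUMS with control asked, for these genes, whether surface markers of the marrow lineages differed after stress. Strain, sex, age and whether a library is 1 mouse or a pool are not given in the sources used here, and the p-values therefore reflect no more than the spread among the 6 libraries, which may be technical.

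LY6 proteins are small, cysteine-rich proteins that fold into a 3-finger domain and are held on the outer face of the cell membrane by a glycosylphosphatidylinositol (GPI) anchor. In mouse marrow several of them are the standard antigens for sorting cells. Ly6c2 encodes the Ly6C antigen of classical monocytes, Ly6g marks neutrophils, Ly6d marks progenitors committed to the B lineage, Ly6a encodes Sca-1 of stem and progenitor cells, and Ly6c1 is also expressed by endothelium. Ly6a, Ly6e and Ly6c2 are known to respond to interferon.

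The members lie in 1 cluster on chromosome 15 (GRCm38, 74762056 to 75159128, 397.1 kb), which holds 15 protein-coding genes with a value in the files. From the low-coordinate end the members are Ly6d (74762056 to 74763567), Ly6e (74955025 to 74959904), Ly6i (74979534 to 74983434), Ly6a (74994877 to 74998031), Ly6c1 (75044018 to 75048920), Ly6c2 (75108161 to 75112066) and Ly6g (75155261 to 75159128). Ly6a2 (75131292 to 75135128), a paralog between Ly6c2 and Ly6g, is not among the 7. It was added after its level was seen, because the bases in front of it are close to those in front of Ly6c2. The transcripts of Ly6c2 and Ly6a2 were less alike, identical at 607 of 847 aligned positions.

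**Figure D1:**
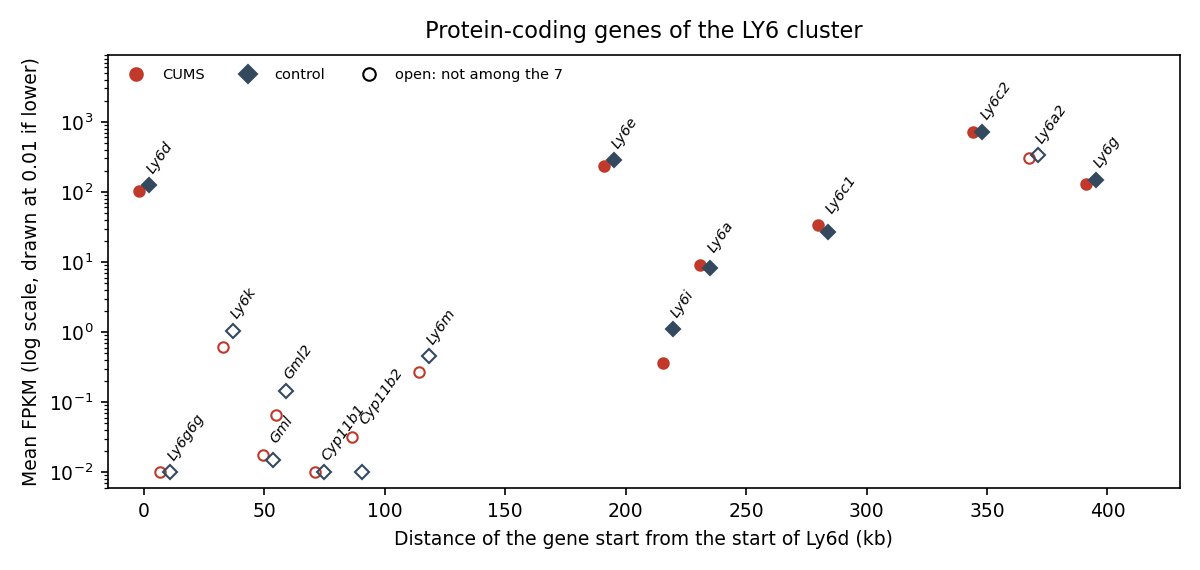
Mean FPKM (log scale) of each protein-coding gene of the cluster against the distance of its start from the start of Ly6d in kb, CUMS as circles and control as diamonds, filled for the 7 members. Ly6d, Ly6e, Ly6c2, Ly6a2 and Ly6g averaged above 100 FPKM in both groups, while the 7 genes between Ly6d and Ly6e averaged at most 1.04 FPKM in either group.

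The cluster arose by duplication, and the bases in front of the genes show how far the copies still match. The 250 bases before the most upstream start that the RefSeq promoter table (GRCm38.p6) gives are printed for the 3 members in that table and for Ly6a2, so that the most abundant member, Ly6c2, can be set beside its copies. Capitals mark the motif GAGGAAGT, a core recognised by PU.1 and other ETS factors, on either strand.
Ly6c2, chr15:75111972-75112221, minus strand: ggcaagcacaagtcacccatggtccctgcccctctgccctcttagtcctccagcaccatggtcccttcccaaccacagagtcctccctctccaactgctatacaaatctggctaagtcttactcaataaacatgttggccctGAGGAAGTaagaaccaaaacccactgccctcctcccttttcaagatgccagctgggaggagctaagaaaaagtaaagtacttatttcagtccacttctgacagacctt
Ly6a2, chr15:75135129-75135378, minus strand: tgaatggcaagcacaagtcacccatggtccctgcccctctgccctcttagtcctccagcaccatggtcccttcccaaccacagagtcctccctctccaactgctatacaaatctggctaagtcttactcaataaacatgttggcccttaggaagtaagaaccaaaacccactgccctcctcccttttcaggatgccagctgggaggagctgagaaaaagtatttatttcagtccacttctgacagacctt
Ly6c1, chr15:75048838-75049087, minus strand: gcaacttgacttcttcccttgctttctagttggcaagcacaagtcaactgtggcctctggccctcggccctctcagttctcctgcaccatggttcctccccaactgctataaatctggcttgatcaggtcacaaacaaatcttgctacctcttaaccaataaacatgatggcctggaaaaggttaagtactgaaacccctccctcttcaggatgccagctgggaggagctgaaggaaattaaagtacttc
Ly6g, chr15:75155011-75155260, plus strand: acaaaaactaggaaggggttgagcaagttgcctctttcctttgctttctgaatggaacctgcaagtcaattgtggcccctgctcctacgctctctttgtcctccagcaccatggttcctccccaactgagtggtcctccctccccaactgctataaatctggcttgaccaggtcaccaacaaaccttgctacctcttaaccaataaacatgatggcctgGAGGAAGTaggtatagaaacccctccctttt

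The starts of Ly6c2 and Ly6c1 in that table lie inside the genes as delimited above, so that 95 bases of the Ly6c2 window and 83 bases of the Ly6c1 window are within the gene, and none of the Ly6g and Ly6a2 windows. The Ly6c2 and Ly6a2 stretches were identical at 94.9% of 255 aligned positions. The other pairs were much further apart. Identity was 62.0% for Ly6c1 and Ly6a2, 59.1% for Ly6c1 and Ly6g and 59.0% for Ly6c1 and Ly6c2. It was 51.1% for Ly6g and Ly6a2 and 50.3% for Ly6c2 and Ly6g. GAGGAAGT began 108 bases before the table's start in Ly6c2 and 31 bases before it in Ly6g, and was in neither the Ly6c1 nor the Ly6a2 window. It also began 102 bases before the start of Ly6f, a paralog outside the 7 with 0 FPKM in every library. Of 27025 promoters, 1 per gene and 250 bases each, 2.42% hold it. The interferon-stimulated response element (GAAA, any 2 bases, GAAA), the gamma-activated site TTCNNNGAA and the C/EBP core TTNCGNAA, searched on both strands, were in none of the 4 printed windows, against 3.05%, 7.14% and 2.05% of all promoters. Ly6a, Ly6d, Ly6e and Ly6i have no promoter in that table.

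The likeness of the copies bears on how reads can be assigned. The longest coding transcripts of Ly6c1 and Ly6c2 in GENCODE M21 were identical at 802 of 844 aligned positions. Among windows of the read length, 151 bases, 5.48% of those in Ly6c1 and 5.65% of those in Ly6c2 occurred letter for letter in the other gene, and among windows of 50 bases 36.7% in Ly6c1 and 33.0% in Ly6c2 occurred in another gene. No window of 151 bases was shared by Ly6a, Ly6d, Ly6e, Ly6g or Ly6i, and none of 50 bases by Ly6d or Ly6e. How the authors' counting treated shared reads is not given in the sources used here, so the levels of Ly6c1 and Ly6c2 are uncertain to that extent. The same holds for Ly6a, Ly6i and Ly6g, and Ly6a and Ly6i stood far below some genes they share windows with. The part of shared reads in these levels was not tested.

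Levels were given in FPKM (fragments per kilobase of transcript, scaled to the size of the library), a scale that corrects for length, so that genes could be compared. Ly6c2 was the most abundant member and ranked 74 among the 12302 genes tested by its mean over the 6 libraries. Ly6e ranked 212, Ly6g 382, Ly6d 480, Ly6c1 2164 and Ly6a 6134, and Ly6i was below the filter of at least 1 FPKM in at least 3 libraries. The range over the 6 libraries overlapped for 1 pair of neighbours in this order, Ly6g (118 to 175 FPKM) and Ly6d (97.5 to 147 FPKM). All other neighbours were apart in every library: Ly6c2 averaged 2.80 times the FPKM of Ly6e, Ly6d 3.81 times that of Ly6c1, and Ly6a 11.9 times that of Ly6i.

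**Figure D2:**
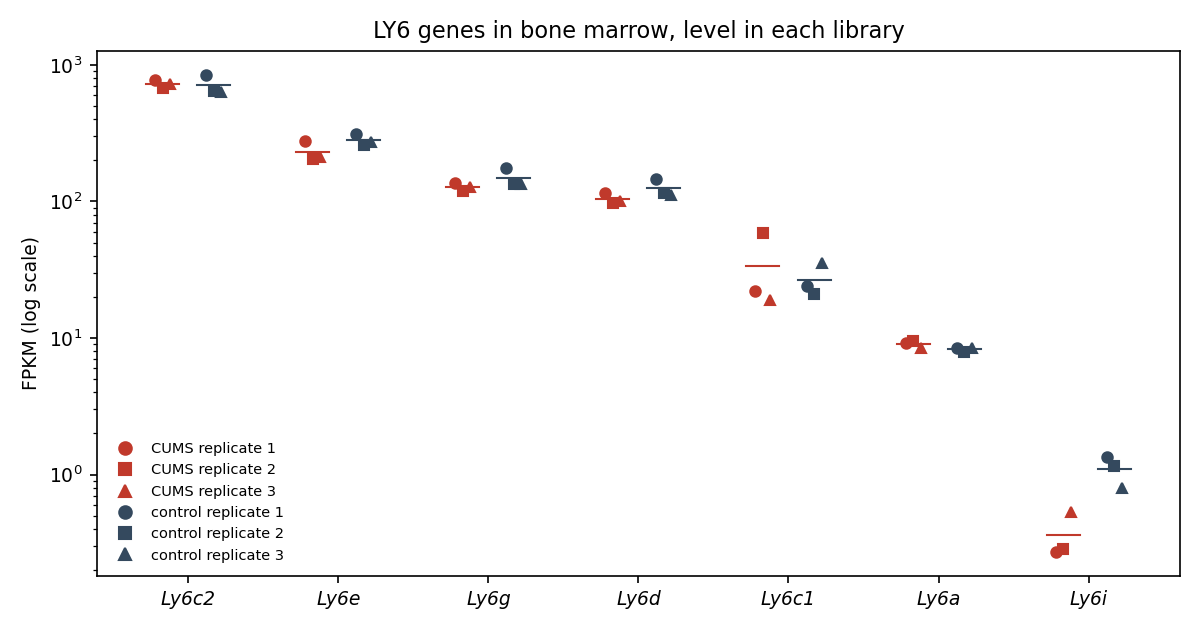
FPKM (log scale) of the 7 LY6 genes in each library, CUMS left of control for each gene, with symbols for replicates 1 to 3 and a line at the group mean. Ly6i lay at 0.532 FPKM or lower in every CUMS library and at 0.803 FPKM or higher in every control library, and Ly6c1 reached 59.2 FPKM in CUMS replicate 2.

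None of the 6 tested members passed the test in the comparison of CUMS with control (limma on log2(FPKM + 1), adjusted p under 0.05 over all tested genes), where 132 of 12302 genes did (1.07%, with 0.618% higher and 0.455% lower in CUMS) and 1898 had an unadjusted p under 0.05, none of them a member. After scaling to the same total 65 genes were higher and 101 lower, against 76 higher and 56 lower without it, and no member passed in either. With the replicate number as a block 959 genes passed (7.8%, with 3.49% higher and 4.31% lower in CUMS) and again no member. Replicate 1 of each group carries another code in the file headers (1) than the other 4 libraries (2), and the meaning of the code is not stated. With this code as a term 1645 genes passed (13.4%, with 6.06% higher and 7.31% lower in CUMS), and in the 4 libraries of code 2 alone 2173 did (17.7%, with 8.82% higher and 8.84% lower). In both of these fits 2 of the 6 members passed, Ly6e and Ly6d, and both were lower in CUMS. The median log2 difference of the 6 tested members was −0.08, against −0.0017 over all tested genes. CUMS and control libraries did not overlap for 1 of the 6, Ly6a, and for 22.1% of all tested genes. In bulk marrow, fewer cells of a type and less RNA per cell cannot be told apart.

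**Figure D3:**
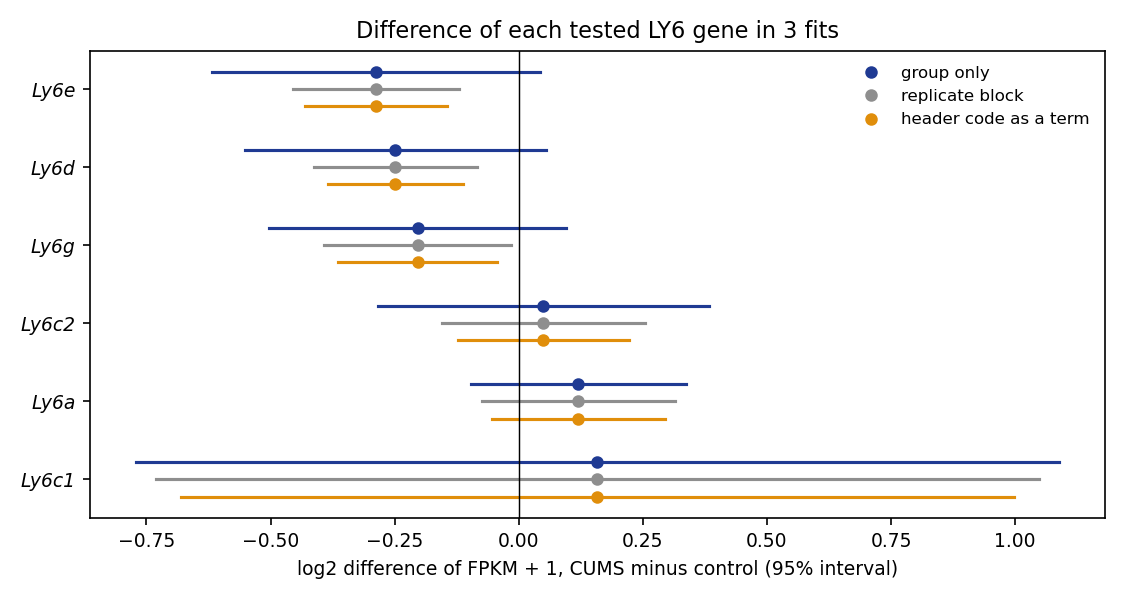
Log2 difference of FPKM + 1, CUMS minus control, of the 6 tested LY6 genes, with 95% intervals, in the fit with group only (blue), with the replicate block (grey) and with the header code as a term (orange). The intervals, which are not adjusted for the number of genes, cross 0 for all 6 genes with group only and lie below 0 for Ly6e, Ly6d and Ly6g in the other fits; that of Ly6c1 spans −0.77 to 1.09 with group only.

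Among the markers of the myeloid lineages, Ly6c2 stood at 776, 677 and 727 FPKM in CUMS replicates 1 to 3, against 849, 641 and 632 FPKM in control replicates 1 to 3. The groups overlapped, and control replicate 1 was the highest library. The means were 727 ± 49.3 FPKM in CUMS and 708 ± 123 FPKM in control (SD, n = 3 each), a log2 difference of 0.05 (95% interval −0.28 to 0.38, limma adjusted p = 0.914). The difference was −0.13 between the 2 libraries of code 1 and 0.14 among those of code 2 (adjusted p = 0.139), so its direction was not the same in both, and it turned to −0.01 without control replicate 2 and to −0.025 without control replicate 3.

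Other genes of classical monocytes mostly had values towards lower, 9 of the 12 tested, against 3 towards higher (Cd14, Klf4 and Ccr1). CUMS and control libraries did not overlap for 8 genes that were lower in CUMS and for 2 that were higher. Over all 12302 tested genes 1488 were lower and 1230 higher without overlap. Of 12 tested genes in the list of classical monocytes 2 fell and 10 did not pass. The median log2 difference of the 12 was −0.36, or −0.21 after quantile normalization. In the fit with the replicate block 6 fell and 1 rose, against 4.31% and 3.49% of all tested genes. Without control replicate 1 the number that passed was 4, and without any other 1 library it was 0 or 1. Fcgr1, the high-affinity IgG receptor, averaged 1.94 ± 0.140 FPKM in CUMS and 5.82 ± 0.706 FPKM in control (log2 difference −1.21, SE 0.119, adjusted p = 0.00717). The M-CSF receptor gene Csf1r averaged 30.1 ± 2.67 FPKM in CUMS and 46.7 ± 2.78 FPKM in control (−0.62, SE 0.0995, adjusted p = 0.0338), and Ms4a4c had a log2 difference of −0.62 (adjusted p = 0.0591, with the block 0.0171). Cd14, a co-receptor for lipopolysaccharide, lay on the other side, at 16.0 ± 2.195 FPKM in CUMS and 9.79 ± 2.16 FPKM in control (0.66, adjusted p = 0.109), and was higher with the block (adjusted p = 0.00704). Klf4 and Ccr1 also had values above 0 (0.28, adjusted p = 0.434, and 0.17, adjusted p = 0.446), and F13a1 averaged 100.7 FPKM in CUMS and 101.1 FPKM in control. The summed level of the list was 4256 to 5046 FPKM in CUMS and 5476 to 7542 FPKM in control. Most of it was Lyz2, the lysozyme gene that neutrophils also express, with 3744 to 4544 FPKM in CUMS and 4903 to 6878 FPKM in control. Without Lyz2 the sum was 495 to 513 FPKM in CUMS and 573 to 664 FPKM in control, also without overlap. Whether the level of Ly6c2, which neutrophil precursors and other marrow cells also express, has a part from these cells was not tested.

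Ly6g, an antigen of neutrophils bound by the Gr-1 antibody, stood at 136, 118 and 128 FPKM in CUMS replicates 1 to 3, against 175, 135 and 134 FPKM in control replicates 1 to 3. The groups overlapped by little, through CUMS replicate 1 and control replicates 2 and 3. The means were 128 ± 8.88 FPKM in CUMS and 148 ± 23.6 FPKM in control, a log2 difference of −0.20 (95% interval −0.50 to 0.10, adjusted p = 0.511, with the code as a term 0.0898). Of 14 neutrophil genes, from the azurophil granule proteins to receptors of mature cells, none passed the test and their median was −0.11, or 0.09 after quantile normalization. Mmp9, gelatinase B of mature neutrophils, averaged 291 ± 11.04 FPKM in CUMS and 412 ± 37.5 FPKM in control (−0.50, adjusted p = 0.0776, with the replicate block 0.0240). Of the 14 genes 9 had values towards lower and 5 towards higher. Cxcr4 and Mpo were among the latter, with log2 differences of 0.24 and 0.27. When the code was a term in the fit, both were higher (adjusted p = 0.0372 and 0.0453) and Mmp9 was lower (adjusted p = 0.00708). The summed level of these 14 genes was 18399 to 21840 FPKM in CUMS and 19094 to 24534.5 FPKM in control, which overlapped.

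The balance of the neutrophil and the monocyte antigen was taken as the ratio of Ly6g to Ly6c2 within each library. Ly6g was at 17.6%, 17.5% and 17.6% of the Ly6c2 FPKM in CUMS replicates 1 to 3, against 20.6%, 21.1% and 21.1% in control replicates 1 to 3. The groups did not overlap, and each varied by less than the gap between them. As a difference of log2(FPKM + 1) the ratio was −2.50 ± 0.00317 in CUMS and −2.25 ± 0.0200 in control (SD, n = 3 each), a difference of −0.25. The exact 2-sided permutation test gave p = 0.1, the smallest that 3 against 3 libraries allow, or 0.2 adjusted over the 2 ratios tested. The share of tested genes whose ratio to Ly6c2 was lower in CUMS without overlap was 9.37%.

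The same ratio was then taken for the other members, as values chosen after that of Ly6g was seen. Ly6d was at 14.96%, 14.4% and 13.8% of the Ly6c2 FPKM in CUMS, against 17.3%, 18.0% and 17.8% in control, and Ly6e at 35.6%, 30.3% and 29.3% in CUMS, against 37.0%, 40.2% and 43.0% in control. Both were lower in every CUMS library than in every control library, as was Ly6i. So was Ly6a2, which is not a member, at 45.7%, 41.7% and 38.3% in CUMS, against 47.4%, 45.8% and 47.6% in control. All of these ratios are taken to the same Ly6c2 values, so they are not separate results. Among the tested genes 9.37% had such a lower ratio without overlap. The ratios of Ly6a and Ly6c1 overlapped between the groups.

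**Figure D4:**
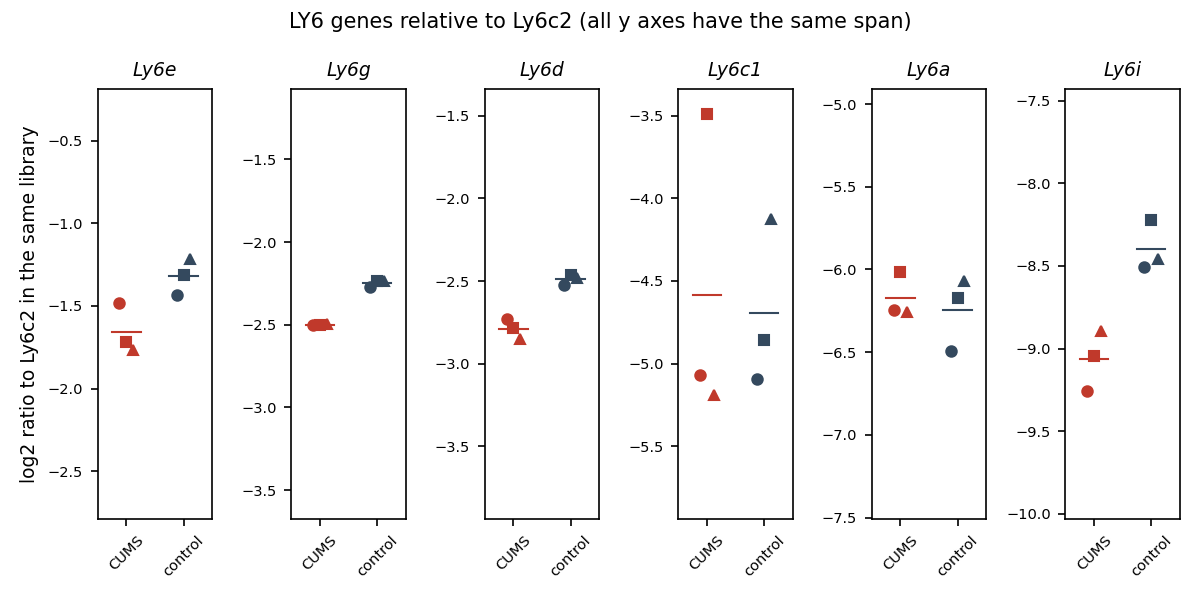
Log2 ratio of each LY6 gene to Ly6c2 within the same library, CUMS left of control, with circles, squares and triangles for replicates 1 to 3 and a line at the mean; all vertical axes have the same span. The ratios of Ly6e, Ly6g, Ly6d and Ly6i do not overlap between the groups, and the 3 CUMS values of Ly6g lie on each other near −2.50.

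Ly6c1 and Ly6c2 encode nearly the same antigen, yet their levels were far apart. Ly6c1 stood at 22.1, 59.2 and 18.9 FPKM in CUMS replicates 1 to 3, against 23.9, 21.1 and 35.2 FPKM in control replicates 1 to 3. CUMS replicate 2 was the highest library, control replicate 3 came next and the other 4 lay between 18.9 and 23.9 FPKM. The means were 33.4 ± 22.4 FPKM in CUMS and 26.8 ± 7.48 FPKM in control (log2 difference 0.16, 95% interval −0.77 to 1.09, adjusted p = 0.901), and without CUMS replicate 2 the difference was −0.34. Ly6c1 was thus at 2.85%, 8.75% and 2.60% of the Ly6c2 FPKM in CUMS, against 2.81%, 3.30% and 5.58% in control. The difference of this log2 ratio was 0.11 (exact 2-sided permutation p = 0.9, also when adjusted over the 2 ratios), or −0.44 without CUMS replicate 2.

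Endothelial and plasma cells are among the cells that express Ly6c1. The summed level of 12 endothelial genes was 25.2, 26.9 and 27.9 FPKM in CUMS replicates 1 to 3, against 25.01, 28.0 and 28.9 FPKM in control replicates 1 to 3, and none of the 6 that could be tested passed. Control replicate 3, second to CUMS replicate 2 in Ly6c1, had the highest of these sums, and CUMS replicate 2 lay among the others. The sum of 8 plasma cell genes was 118, 97.9 and 103 FPKM in CUMS, against 126, 105 and 100 FPKM in control, with CUMS replicate 2 and control replicate 3 the lowest. None of the 6 tested plasma cell genes passed, 5 had values towards lower and the median was −0.25. Jchain, the joining chain of IgM and IgA, lay on the other side and was higher with the block (log2 difference 0.48, adjusted p = 0.0383), while with the code as a term Mzb1 and Xbp1, which serve antibody secretion, were lower (−0.27, adjusted p = 0.0362, and −0.22, adjusted p = 0.0414). The part of these cells in the level of Ly6c1 was not tested.

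Ly6d, the marker of B-committed progenitors, stood at 116, 97.5 and 100.1 FPKM in CUMS replicates 1 to 3, against 147, 116 and 112 FPKM in control replicates 1 to 3. The groups overlapped only through CUMS replicate 1, which carries code 1. Within each code the CUMS libraries were all lower than the control libraries. The means were 105 ± 10.03 FPKM in CUMS and 125 ± 18.9 FPKM in control, a log2 difference of −0.25 (95% interval −0.55 to 0.05, adjusted p = 0.419). It passed with the code as a term (−0.25, SE 0.059, adjusted p = 0.0313) and in the libraries of code 2 (−0.20, adjusted p = 0.0419), and not with the replicate block (adjusted p = 0.0722).

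Genes of the B lineage had values on the same side as Ly6d. None of 14 passed the test, 11 had values towards lower and the median was −0.33. With the replicate block 7 fell and 1 rose, against 4.31% and 3.49% of all tested genes. Rag2, a recombinase of antigen receptor genes, averaged 1.21 ± 0.0435 FPKM in CUMS and 2.21 ± 0.124 FPKM in control (−0.53, adjusted p = 0.0725, with the block 0.0246). Dntt, terminal transferase of early lymphoid cells, averaged 10.3 ± 0.955 FPKM in CUMS and 14.7 ± 2.39 FPKM in control (−0.48, adjusted p = 0.151, with the block 0.0226). Il7r, the interleukin-7 receptor, lay on the other side, at 13.2 ± 1.08 FPKM in CUMS and 9.63 ± 1.21 FPKM in control (0.42, adjusted p = 0.154, with the block 0.0247). The summed level of the 14 genes was 540 to 598 FPKM in CUMS and 644 to 746 FPKM in control, without overlap.

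Plasmacytoid dendritic cells also carry Ly6d. In their list 1 of 9 tested genes fell, Irf7, with a median of −0.08, and with the block 3 did, Irf7, Bst2 and Spib. Irf7 was lost without CUMS replicate 2, CUMS replicate 3 or control replicate 3, and without control replicate 1 the number was 3. Irf7 and Bst2 are interferon-inducible as well. Spib, a transcription factor of these cells and of B cells, averaged 48.9 ± 1.88 FPKM in CUMS and 68.7 ± 7.25 FPKM in control (−0.48, adjusted p = 0.0786, with the block 0.0167). Siglech, a surface lectin of these cells, averaged 18.4 ± 0.547 FPKM in CUMS and 18.8 ± 0.377 FPKM in control (−0.03, adjusted p = 0.911), and Ccr9 and Tcf4 had log2 differences of −0.06 (adjusted p = 0.854) and 0.10 (adjusted p = 0.857). The summed level of the list was 149 to 162 FPKM in CUMS and 215 to 222 FPKM in control, and without Irf7 and Bst2 it was 84.4 to 95.1 FPKM in CUMS and 98.6 to 118 FPKM in control. Most of this remaining sum was Spib, at 48.9 FPKM in CUMS and 68.7 FPKM in control. Nearly all of the remaining gap was that of Spib, so it does not describe the list as a set. The part of either cell type in the level of Ly6d was not tested.

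Ly6e, whose product is known as stem cell antigen 2 and restricts the entry of some viruses, stood at 276, 205 and 213 FPKM in CUMS replicates 1 to 3, against 314, 258 and 272 FPKM in control replicates 1 to 3. As with Ly6d, the groups overlapped only through CUMS replicate 1, and within each code every CUMS library was lower. The means were 232 ± 39.1 FPKM in CUMS and 281 ± 29.3 FPKM in control, a log2 difference of −0.29 (95% interval −0.62 to 0.04, adjusted p = 0.389). The adjusted p was 0.0243 with the code as a term (SE 0.0624), 0.0549 with the replicate block and 0.0103 in the libraries of code 2, where the difference was −0.34.

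Ly6i, a less studied paralog of Ly6a and Ly6c, was close to the floor. It stood at 0.272, 0.284 and 0.532 FPKM in CUMS replicates 1 to 3, against 1.34, 1.15 and 0.803 FPKM in control replicates 1 to 3. The groups did not overlap, and the means of 0.362 ± 0.147 FPKM in CUMS and 1.10 ± 0.271 FPKM in control were 3.02-fold apart. Of the tested genes, which leave out Ly6i, 12.1% were lower in CUMS without overlap. Whether reads shared with more abundant paralogs have a part in the low values of Ly6i was not tested. Only 2 libraries, both control, reached 1 FPKM, so Ly6i was not in the main fit. With no filter on low values its log2 difference was −0.62 (SE 0.135, unadjusted p = 0.00444, limma adjusted p = 0.212), on a scale that understates the change of a gene this low. The difference was −0.88 in the pair of code 1 and −0.49 among the libraries of code 2.

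Ly6a was the 1 tested member without overlap between the groups, and its values were close together. It stood at 9.25, 9.47 and 8.51 FPKM in CUMS replicates 1 to 3, against 8.44, 7.92 and 8.44 FPKM in control replicates 1 to 3. The means were 9.08 ± 0.506 FPKM in CUMS and 8.27 ± 0.303 FPKM in control, a log2 difference of 0.12 (95% interval −0.10 to 0.34, adjusted p = 0.604). The difference was 0.12 within each code too, and the adjusted p was 0.313 with the code as a term. None of the 8 tested stem and progenitor genes passed, with a median of 0.02, or −0.02 after scaling to the same total. Kit, the stem cell factor receptor, averaged 10.3 ± 0.570 FPKM in CUMS and 8.16 ± 1.10 FPKM in control (0.31, adjusted p = 0.267). Meis1 and Slamf1, a regulator and a surface marker of stem cells, lay on the other side without overlap, with log2 differences of −0.18 (adjusted p = 0.516) and −0.17 (adjusted p = 0.543), and 4 of the 8 had values towards lower. The summed level of the 12 listed genes was 78.8 to 83.2 FPKM in CUMS and 72.3 to 77.1 FPKM in control, and Mecom stayed under 0.1 FPKM in every library.

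Interferon-stimulated genes were set beside the members because several of these respond to interferon. Of 23 tested genes in that list 14 fell, none rose and 9 did not pass, with a median log2 difference of −0.83, and with the replicate block 21 fell. Without control replicate 1 the number that passed was 15, and without any other 1 library it was 4 to 7. Oas1a, an antiviral oligoadenylate synthetase, averaged 7.40 ± 0.704 FPKM in CUMS and 18.6 ± 0.697 FPKM in control (−1.22, adjusted p = 0.00419). Usp18, a brake on signalling from the interferon receptor, had a log2 difference of −1.12 (adjusted p = 0.00419) and Oasl2, a relative of Oas1a, one of −1.26 (adjusted p = 0.00551). Among those that did not pass were Ifit2 (−0.21, adjusted p = 0.512) and Ifi47 (−0.31, adjusted p = 0.289). Differences between members and these genes were not tested. The list was drawn up with an earlier result of these data known, so its direction is not independent evidence.

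**Figure D5:**
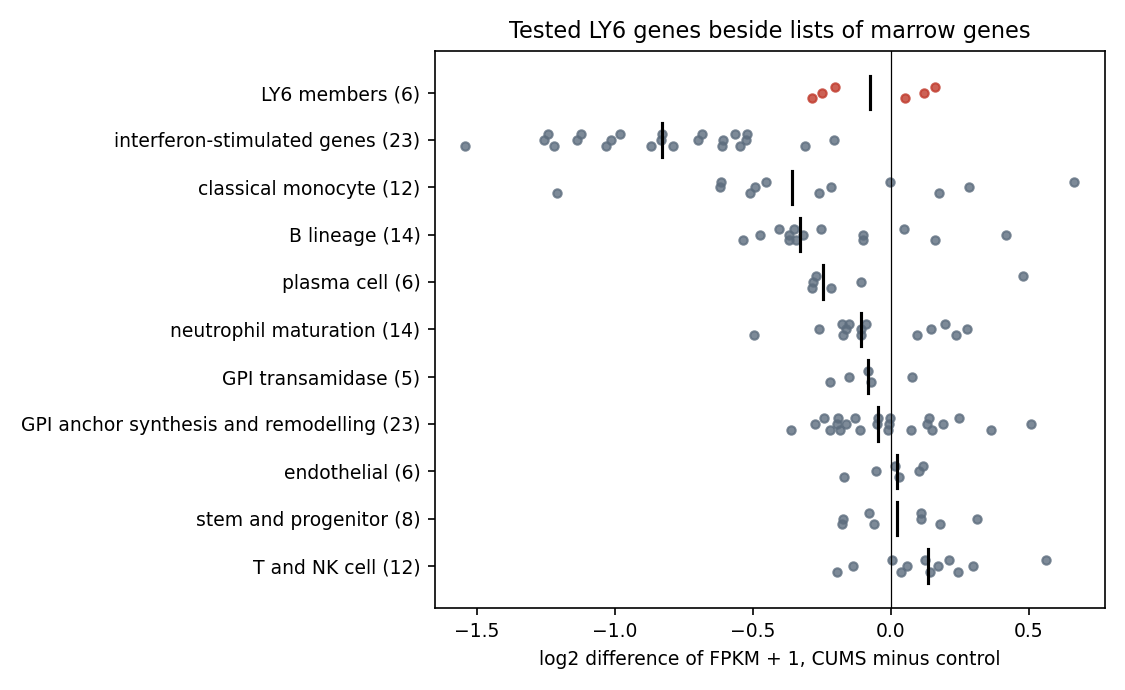
Log2 difference of FPKM + 1, CUMS minus control, of the 6 tested LY6 genes (red) and of the tested genes of 10 lists (grey), with a black bar at each median and the number of genes in brackets. The LY6 genes lie between −0.29 and 0.16, and all 23 interferon-stimulated genes lie below 0 with a median of −0.83. Ly6i, below the filter, is not drawn.

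The genes of the machinery that gives LY6 proteins their anchor had values on both sides of 0. None of the 5 subunits of the GPI transamidase, which transfers the anchor to the protein, passed (median −0.08), nor did any of 23 tested genes of anchor synthesis and remodelling (median −0.05). Pigs, a transamidase subunit, averaged 14.3 ± 1.46 FPKM in CUMS and 16.8 ± 0.830 FPKM in control (−0.22, adjusted p = 0.365). Piga, the catalytic subunit of the first step, had a log2 difference of 0.36 (adjusted p = 0.267) and Pigh, its partner, one of −0.36 (adjusted p = 0.241). With the code as a term Piga was higher (adjusted p = 0.0342) and Mppe1, which remodels the anchor, lower (−0.24, adjusted p = 0.0462). In the libraries of code 2 Piga was higher (adjusted p = 0.0214) and the transamidase subunits Pigs and Pigt were lower (adjusted p = 0.0309 and 0.0366).

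The rest of the family was mostly silent in marrow. Of 34 other genes with an LY6/uPAR domain 20 stayed under 0.1 FPKM in every library and 8 could be tested, none of which passed, with a median of −0.12. Cd59a, an inhibitor of complement lysis, averaged 8.32 ± 0.519 FPKM in CUMS and 6.13 ± 0.127 FPKM in control (0.38, SE 0.0946, adjusted p = 0.114), and was higher with the replicate block (adjusted p = 0.0372) and with the code as a term (adjusted p = 0.0166). Cd177, a neutrophil adhesion protein, averaged 298 ± 39.2 FPKM in CUMS and 339 ± 28.6 FPKM in control (−0.19, adjusted p = 0.528, in the libraries of code 2 alone −0.23 and 0.0274), and Plaur, the urokinase receptor, 71.3 ± 5.77 FPKM in CUMS and 75.8 ± 5.35 FPKM in control (−0.09, adjusted p = 0.745). The other tested genes averaged under 5 FPKM in both groups, with log2 differences of −0.33 for Ly6k (adjusted p = 0.579), −0.20 for Lynx1 (0.388), −0.15 for Cd59b (0.774), 0.02 for Ly6g5b (0.972) and −0.0046 for Ly6g6f (0.993). Ly6a2, outside the lists, stood at 355, 282 and 279 FPKM in CUMS, against 402, 294 and 301 FPKM in control (−0.12, adjusted p = 0.79).

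Genes of other cell types were read in the same libraries. Of 10 genes of eosinophils and basophils 4 rose (median 0.37), and their sum was 1657 to 1696 FPKM in CUMS and 807 to 1100 FPKM in control. Without control replicate 1 the number was 4, and without any other 1 library it was 1 or 2. Of 9 bone and stroma genes 1 rose, Col1a2 (0.62, adjusted p = 0.0293), a count that was 1 without control replicate 1 and 0 without any other 1 library, and of 10 erythroid and 12 T and NK cell genes none passed (medians 0.18 and 0.13, or 0.04 and 0.13 after quantile normalization). The share of haemoglobin in the summed FPKM was 31.7% to 35.2% in CUMS and 28.8% to 29.2% in control. The immediate-early genes Fos, Jun and Egr1, which also respond to the handling of tissue, rose (log2 differences 0.91, 0.89 and 1.42, adjusted p = 0.00887, 0.00839 and 0.0285), and none of them passed without CUMS replicate 2, CUMS replicate 3 or control replicate 3. The part of these in the LY6 values was not tested.

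For each tested member the 2 genes with the most similar profile over the 6 libraries were found among 5626 genes averaging at least 10 FPKM, by Pearson r on log2(FPKM + 1). They were Srp9 (r = 0.998) and Rtn3 (0.991) for Ly6c2, Ethe1 (0.999) and Cdipt (0.996) for Ly6e, Ubxn6 (0.995) and Dcaf11 (0.992) for Ly6g, Tcn2 (0.995) and Leprotl1 (0.993) for Ly6d, Med7 (0.977) and Tm9sf2 (0.967) for Ly6a, and Gm9791 (0.973) and Dnajb2 (0.927) for Ly6c1. All values of r share the same 6 libraries and the header code, and r was above 0.9 for 305 to 445 of the 5626 genes with Ly6c2, Ly6d, Ly6e and Ly6g, for 29 with Ly6a and for 2 with Ly6c1.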

How the data were processed

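Bone marrow RNA was extracted with TRIzol and made into libraries with a TruSeq kit, per the labels' protocols. Per the submitters' processing notes the genome was mm10 and the tools were DESeq2 2.11.40.6, HISAT2 2.1, featureCounts 1.6.4, cutadapt 1.16.5 and bcl2fastq 2.19; their roles and the use of strand are not given in the sources used here. The values the authors deposited were taken as FPKM from the files themselves: they are not whole, sum to 561563 to 658595 per library, and times the longest GENCODE transcript in kilobases sum to 959134 to 1020437. Values as low as 1e-06 occur, so whole reads were not recovered, the depth is unknown, and no counting interval is given. Between 21334 and 23224 entries were above 0 per library.

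The 12302 genes that reached 1 FPKM in 3 or more libraries were tested with limma-trend on log2(FPKM + 1), group as the only term, Benjamini-Hochberg adjusted over all of them, threshold 0.05 (R 4.3.3, limma 3.58.1; Python 3.11.15, scipy 1.17.1). The fit was tested on simulated data. Promoters came from RefSeq (GRCm38.p6) and transcripts from GENCODE M21. Titles number replicates 1 to 3 in both groups. Across genes, the deviations of equal numbers from their group means had r of 0.689, 0.452 and 0.363, so the replicate block was used as a paired alternative; replicates 2 and 3 crossed had 0.459 and 0.362, so the data do not tell these 2 pairs apart. Members, lists and tests were chosen with earlier results of these data known. Named genes were the members, other tested LY6/uPAR genes, up to 3 of smallest p per list and 2 of most similar profile per member. Cd14, Klf4, Ccr1, F13a1, Lyz2, Siglech, Ccr9, Tcf4, Xbp1, Ifit2, Ifi47, Mecom, Ly6a2, the sums without some genes and the ratios other than those of Ly6g and Ly6c1 were chosen after their values were seen. So were Mpo, Cxcr4 and Ly6f.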

Additional observations from a re-analysis of the deposited data

How the results depend on the processing

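The count of genes that differed moved with the fit: 36 with no filter on low values, 199 with quantile normalization, 959 with the replicate block, 1645 with the header code as a term, 2173 in the 4 libraries of code 2, and 17 to 262 when 1 library was left out. The count of members that passed was 2 with the code as a term and in the libraries of code 2, and 0 in each other alternative that was run, leaving out each library included. Those were Ly6d (−0.25, adjusted p = 0.0313 and −0.20, adjusted p = 0.0419) and Ly6e (−0.29, adjusted p = 0.0243 and −0.34, adjusted p = 0.0103). Over the 6 fits without 1 library the log2 difference ran from 0.09 to 0.16 for Ly6a, −0.34 to 0.46 for Ly6c1, −0.025 to 0.19 for Ly6c2, −0.33 to −0.13 for Ly6d, −0.42 to −0.21 for Ly6e, −0.27 to −0.08 for Ly6g and −0.72 to −0.54 for Ly6i. Ly6c1 turned to −0.34 without CUMS replicate 2, and Ly6c2 to −0.01 without control replicate 2 and −0.025 without control replicate 3. Ly6i had −1.39 with a pseudocount of 0.1, since a smaller pseudocount widens differences of low values. The Ly6g to Ly6c2 ratio differed by −0.26 to −0.25 without 1 library and the Ly6c1 to Ly6c2 ratio by −0.44 to 0.41, turning to −0.44 without CUMS replicate 2 and to −0.09 without control replicate 1. With the replicate block, an exact sign-flip test over 3 pairs, the Ly6g ratio had p = 0.25, the smallest it allows. The depth is unknown, so how firmly the low values of Ly6i stand cannot be given. No fit with the code as a term was run for the ratios or for Ly6i.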

Other observations

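Over the 6 libraries the log2 values of Ly6d, Ly6g and Ly6e varied together, with Pearson r of 0.977 for Ly6d and Ly6g, 0.931 for Ly6d and Ly6e and 0.862 for Ly6e and Ly6g. Ly6a2 followed Ly6d with r = 0.905 and Ly6c2 with r = 0.813. Ly6c2 varied with Ly6g with r = 0.699 and with Ly6c1 with r = −0.37. Ly6a and Ly6i ran against each other with r = −0.85. The points share the 6 libraries and the header code, so these values describe the libraries only.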
